A study of Mus musculus with 2 samples.

Results

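The 49 genes described here act in G2 and mitosis: they build the spindle, attach chromosomes to it, drive the cyclin-dependent kinase that starts mitosis or dismantle it at the end. They were taken by symbol from a fixed list and not by a cut-off on their measured values. Earlier results of these data were known when the list was chosen. All 49 were found among the 31053 gene rows of both count matrices. The cells were dorsal root ganglion (DRG) cells of 2-week-old Swiss mice, dissociated with enzymes and kept in culture for 3 days. This was the only condition, measured in 2 single-cell libraries, A and B, so that every comparison is between kinds of cells within the same libraries. The labels do not say that the libraries are of different mice or different culture dishes, and p-values therefore measure only the spread between these libraries, which may be technical.

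In a dividing cell the genes of mitosis are switched on late in the cell cycle, after the genes of DNA replication. Cdk1 bound to a B-type cyclin starts mitosis, Aurora and checkpoint kinases watch over the attachment of kinetochores to spindle microtubules, and the anaphase-promoting complex with its activator Cdc20 then marks the cyclins for destruction. In cells that do not divide, a repressor complex (DREAM) keeps many of these genes off through a promoter element called the cell cycle homology region, while the MuvB, B-Myb and Foxm1 proteins and the CCAAT-binding factor NF-Y help to switch them on in G2. Sensory neurons have left the cell cycle for good, whereas satellite glial cells, which wrap their cell bodies, and Schwann cells, which wrap their fibres, can divide again in culture.

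After removal of cells with fewer than 200 detected genes or more than 10% mitochondrial UMIs (unique molecular identifiers, the count of captured transcripts), 10730 of 10948 barcodes remained, 5066 in A and 5664 in B, from 40355401 and 38945848 deposited UMIs. They fell into 9451 glial cells, 388 fibroblasts, 83 macrophages and 808 neurons, named from marker genes. Levels are given as CPM, counts per 1000000 UMIs of a group of cells summed in a library. The markers of each class were highest in that class: 8 glial markers summed to 3921 CPM in A and 3853 in B in glia, and 10 neuronal markers to 13681 and 13723 CPM in neurons. The 8 glial markers were also detected in every other class, at 149 to 219 CPM in fibroblasts, 665 to 1079 CPM in macrophages and 548 to 550 CPM in neurons. The median cell held 4723 UMIs in glia, 11529 in fibroblasts, 9203 in macrophages and 28338 in neurons. The libraries shared 8 cell barcodes (7 after filtering), and their counts differed by more than sampling noise (chi-square per gene 1.53 in glia and 2.22 in neurons, where sampling alone gives about 1). Scrublet, a doublet caller, marked 1 cell in each library, too few to be informative, and no doublets were removed.

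Glia were clustered again without the 49 genes, 50 other mitosis genes and 22 regulators of the mitotic programme, and the clusters were named from genes outside the 49. Cluster 4 (1157 cells, 12.24% of glia) was mitosis-led, with the other mitosis genes at 8128 CPM in A and 8346 in B and 43 S phase genes at 1287 and 1263 CPM. Clusters 1 (2388 cells, 25.27%) and 3 (1196 cells, 12.65%) were replication-led, with the S phase genes at 4341 to 4796 CPM. Their other mitosis genes were not far below those of cluster 4, at 7022 and 7037 CPM in cluster 1 and 7771 and 7730 CPM in cluster 3. The names mitosis-led and replication-led thus differ mainly by the S phase genes. Clusters 2 (1934 cells, 20.46%) and 0 (2776 cells, 29.37%) held low levels of both lists and are called non-dividing. Cluster 2 was named repair-like from markers of repair Schwann cells (Ngfr at 225 and 208 CPM, against 43.4 and 36.6 in cluster 0), and cluster 0 satellite-like (Fabp7 at 1482 and 1431 CPM, against 200 and 200.4 in cluster 2). The 10 repair markers as a whole summed to much the same in both, 1769 and 1714 CPM in cluster 2 and 1613 and 1599 CPM in cluster 0. Ngfr differed by more than these sums did, so the other repair markers together summed slightly lower in cluster 2. The name follows the mean log2 level of the 10 markers, which was higher in cluster 2, and is only a label. Of the dividing clusters, 4 and 1 held more of the satellite markers (7781 to 8732 CPM) than 3 did (2132 and 2228 CPM). Clusters 4 and 1 held less of them than cluster 0 (14273 and 13802 CPM). The sum of these markers was also high in macrophages (23886 and 21002 CPM), so it is not particular to satellite glia.

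The promoters of several members are shown, some with and some without the 2 elements through which this programme is known to be controlled. RefSeq promoter windows on GRCm38.p6, from 250 bases before to 50 after the start, were matched for 43 of the 49 genes (Tpx2, Smc4, Aurkb, Cdca2, Cdc25c and Dlgap5 were not matched). A gene counted when any of its windows held the motif. The cell cycle homology letters TTTGAA or TTCGAA, searched on both strands, were present in 32 of the 43 genes (74.4%), against 21.7% of all 27025 genes. CCAAT, on both strands and with any overlap of the motifs allowed, was present in 33 (76.7%), against 41.1%, and both motifs together in 27 (62.8%), against 8.61%. Without the 50 bases after the start, the homology letters were found in 19 members (44.2%, against 19.6% of all genes) and both motifs in 17 (39.5%, against 7%). In the 100 bases just before the start, CCAAT was found in 31 members (72.1%, against 21.6% of all genes) and the homology letters in 13 (30.2%, against 7.18%). The sequences given are the 150 bases before the start, read 5′ to 3′ on the gene's strand, with both motifs and their reverse complements in capitals. Cdk1 (chr10:69352913-69353062, minus strand), Top2a (chr11:99024190-99024339, minus), Ube2c (chr2:164769779-164769928, plus) and Cdc20 (chr4:118437344-118437493, minus) had both motifs there.
Cdk1: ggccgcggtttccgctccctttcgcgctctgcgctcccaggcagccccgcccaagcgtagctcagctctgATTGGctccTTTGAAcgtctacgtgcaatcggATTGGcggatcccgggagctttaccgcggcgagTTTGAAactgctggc
Top2a: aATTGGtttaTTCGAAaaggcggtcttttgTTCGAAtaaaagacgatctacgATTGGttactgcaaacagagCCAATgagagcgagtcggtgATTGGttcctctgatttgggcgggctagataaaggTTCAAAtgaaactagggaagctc
Ube2c: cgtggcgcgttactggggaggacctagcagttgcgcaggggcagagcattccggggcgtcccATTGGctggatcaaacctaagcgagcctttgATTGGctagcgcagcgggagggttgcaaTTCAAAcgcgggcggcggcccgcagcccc
Cdc20: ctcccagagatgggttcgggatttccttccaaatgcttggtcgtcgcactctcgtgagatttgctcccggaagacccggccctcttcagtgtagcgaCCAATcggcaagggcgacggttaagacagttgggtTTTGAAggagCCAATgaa
In the same stretch the B-type cyclins Ccnb1 (chr13:100786487-100786636, minus) and Ccnb2 (chr9:70421555-70421704, minus) and the β-tubulin gene Tubb4b (chr2:25224703-25224852, minus), which neurons also expressed, held CCAAT letters alone.
Ccnb1: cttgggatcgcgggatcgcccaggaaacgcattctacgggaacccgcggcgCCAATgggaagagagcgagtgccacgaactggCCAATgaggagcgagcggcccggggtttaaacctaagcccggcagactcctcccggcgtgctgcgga
Ccnb2: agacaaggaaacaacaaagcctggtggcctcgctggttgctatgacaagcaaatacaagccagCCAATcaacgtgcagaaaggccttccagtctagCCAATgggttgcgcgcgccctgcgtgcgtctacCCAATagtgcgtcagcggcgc
Tubb4b: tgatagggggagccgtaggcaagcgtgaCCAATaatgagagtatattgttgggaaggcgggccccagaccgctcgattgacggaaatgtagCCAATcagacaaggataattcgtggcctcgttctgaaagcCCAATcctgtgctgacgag
Ndc80 (chr17:71526858-71527007, minus) and Haus5 (chr7:30664995-30665144, minus), the members with the lowest fold change between mitosis-led and replication-led glia, held none of these letters there. Neither did 8 other members, of which 6 were higher and 2 lower in mitosis-led than in replication-led glia, while Top2a, with 7 matches, was lower, and no link between letters and fold change is read from these examples.
Ndc80: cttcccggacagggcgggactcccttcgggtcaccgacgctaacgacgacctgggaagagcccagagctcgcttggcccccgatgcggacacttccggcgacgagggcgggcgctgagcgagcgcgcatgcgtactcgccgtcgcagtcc
Haus5: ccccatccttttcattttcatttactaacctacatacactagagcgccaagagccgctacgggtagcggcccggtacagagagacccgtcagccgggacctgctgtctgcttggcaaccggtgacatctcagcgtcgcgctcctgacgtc
A match is a string of letters and not a measured binding site.

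The 49 genes were mostly transcribed in glia. Together they made up 8699 CPM in A and 8591 CPM in B in glia, 2260 and 1474 CPM in fibroblasts, 2971 and 1933 CPM in macrophages, and 1381 and 1395 CPM in neurons. Glia stood above every other class in both libraries, and fibroblasts and macrophages were lower in B than in A. In neurons the β-tubulin gene Tubb4b alone gave 43.8% of the member UMIs, against 8.47% in glia. Without 7 genes that many cells use outside division (Tubb4b, Hmgb2, Cks1b, Tmpo, Anp32e, Ckap5 and Lbr), the remaining 42 members summed to 6406 and 6314 CPM in glia, 1294 and 693 in fibroblasts, 2061 and 1300 in macrophages, and 500 and 502 in neurons.

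**Figure D1:**
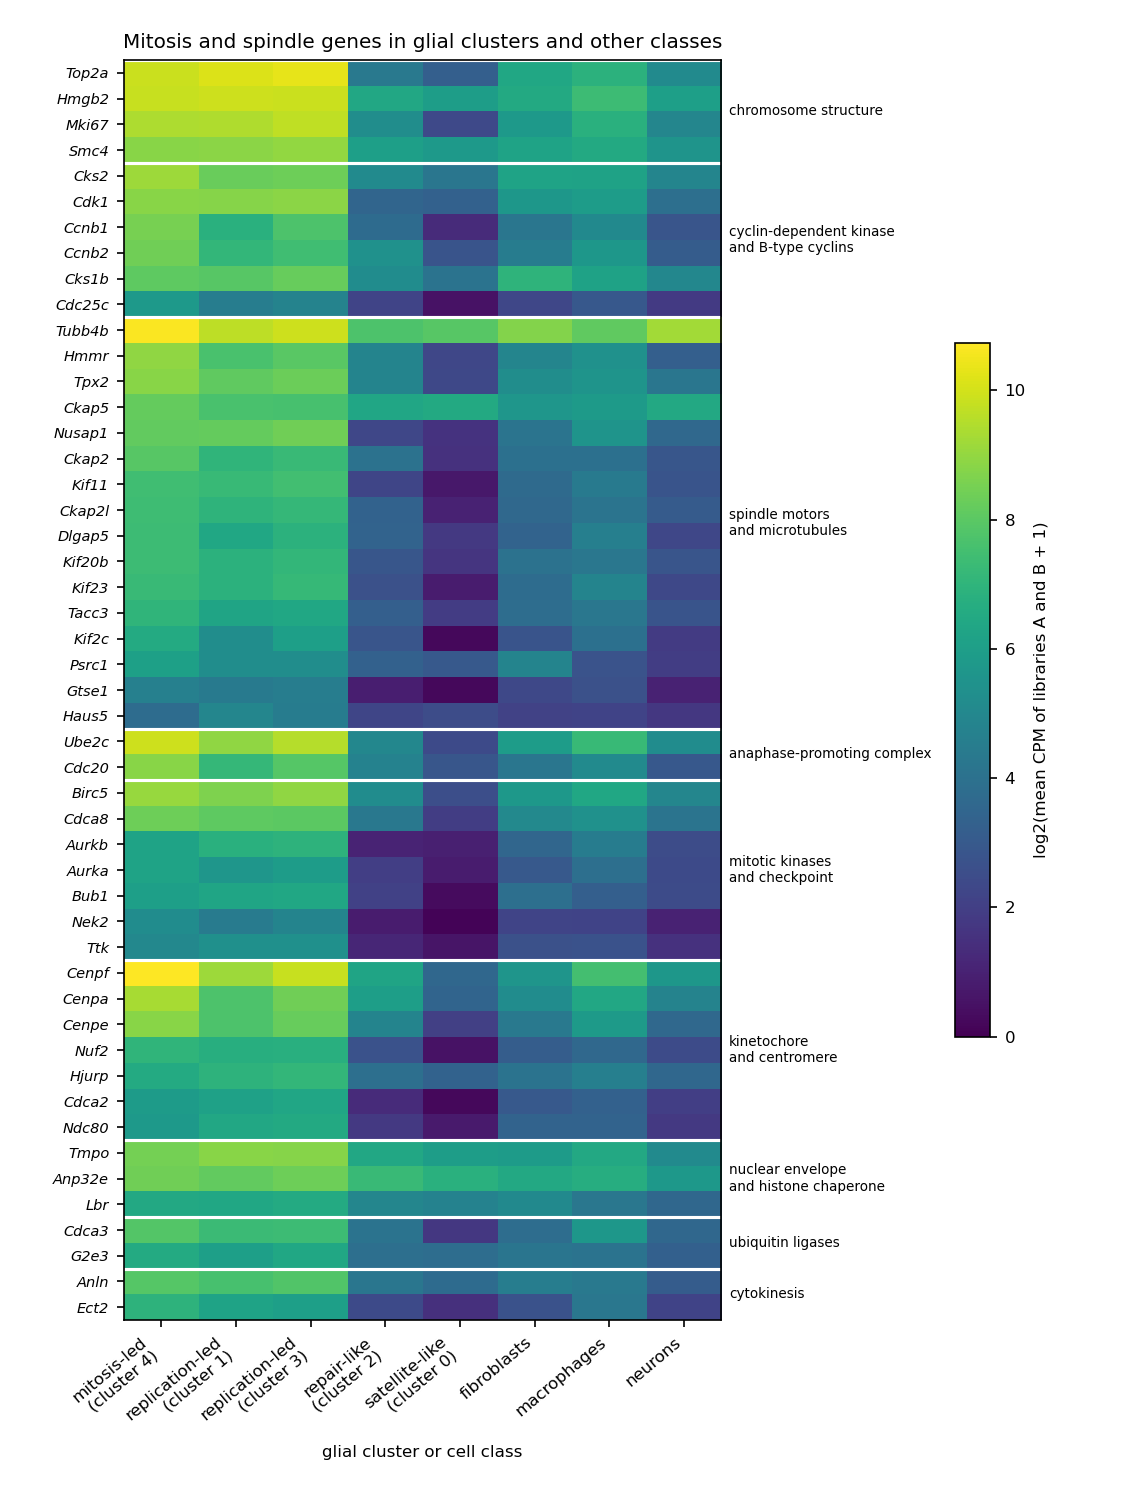
Levels of the 49 genes as log2(mean CPM of libraries A and B + 1), with genes in rows grouped by role and ordered by level, and glial clusters and other cell classes in columns. The 3 dividing glial clusters on the left are bright for nearly all members, while Tubb4b, Ckap5 and Anp32e keep a level in the non-dividing clusters and in neurons.

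The first question was in which cells of the culture mitosis genes are transcribed, with neurons as the class that does not divide. All 49 genes were higher in glia than in neurons (edgeR's quasi-likelihood test on sums per library and class, Benjamini-Hochberg adjusted p under 0.05 over 13791 genes), where 43.0% of all genes tested were higher and 40.8% lower. The median log2 fold change of the 49 was 3.55, against 0.039 over all genes. These backgrounds include the genes that formed the classes. The glial markers were at 548 and 550 CPM in neurons, and the part of carried-over glial RNA in the neuronal values was not tested.

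Among the genes of chromosome structure, Top2a, the topoisomerase that untangles sister chromatids, was at 719 CPM in A and 699 in B in glia, against 30.2 and 37.9 CPM in neurons (log2 fold change 4.36 ± 0.12 (SE), edgeR adjusted p = 8.8e-22). Mki67, whose protein coats mitotic chromosomes and is the usual marker of dividing cells, was at 471 and 449 CPM in glia, against 29.7 and 28.5 CPM in neurons (3.95 ± 0.09). The libraries agreed closely and the classes did not overlap.

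Of the cyclin-dependent kinase group, Cdk1 itself was at 287 and 279 CPM in glia, against 15.0 and 13.2 CPM in neurons (log2 fold change 4.29 ± 0.11). Ccnb1, which brings Cdk1 to its targets, was at 123 and 125 CPM in glia, against 6.80 and 5.50 CPM in neurons (4.28 ± 0.12). Ccnb2 gave 124 and 129 CPM in glia, against 8.27 and 7.26 CPM in neurons (3.98 ± 0.11). Their small binding partners differed less: Cks1b was at 173 and 172 CPM in glia, against 31.1 and 28.7 CPM in neurons (2.50 ± 0.09), and Cks2 at 244 and 238, against 29.0 and 27.2 CPM (3.07 ± 0.09).

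The largest fold change of the list was that of Cdc20, the activator of the anaphase-promoting complex, at 152 and 150 CPM in glia, against 6.98 and 6.71 CPM in neurons (log2 fold change 4.43 ± 0.11). The spindle-associated Hmmr followed at 181 and 180 CPM in glia, against 9.39 and 7.70 CPM in neurons (4.36 ± 0.12). Kif23, a kinesin of the central spindle, was at 83.1 and 82.6 CPM in glia, against 3.96 and 4.07 CPM in neurons (4.34 ± 0.15). Ndc80, the subunit that joins kinetochores to microtubules, was at 48.9 and 50.1 CPM in glia, against 2.41 and 2.53 CPM in neurons (4.29 ± 0.16). These members serve different steps of mitosis, from spindle assembly to the splitting of the cell. The Aurora kinases were lower in level, with Aurka at 36.0 and 36.6 CPM in glia, against 3.79 and 4.73 CPM in neurons (3.07 ± 0.15), and Aurkb at 64.2 and 66.2, against 4.31 and 4.95 CPM (3.79 ± 0.12).

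The smallest differences were in Tubb4b and Ckap5, followed by Anp32e (log2 fold change 2.19), Cks1b and Lbr. Tubb4b was at 731 and 733 CPM in glia, against 610 and 605 CPM in neurons (log2 fold change 0.24 ± 0.06, edgeR adjusted p = 0.00051), and it was called in 11 of 13 processing settings. Without the 5% of cells with the highest doublet scores its fold change was −0.05 and was not called. Ckap5, a microtubule polymerase active in interphase as well, was at 173 and 166 CPM in glia, against 87.2 and 90.1 CPM in neurons (0.91 ± 0.06). Lbr, the lamin B receptor of the inner nuclear membrane, was at 62.9 and 65.4 CPM in glia, against 10.3 and 11.8 CPM in neurons (2.52 ± 0.10). The other 48 genes were called higher in glia in all 13 settings.

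Fibroblasts had 42 of the 49 genes higher than neurons and 2 lower (32.2% of all genes higher and 36.9% lower), with a median log2 fold change of 1.27, against −0.11 over all genes. Within 1 library, on the scale of log2(CPM + 1), that median was 1.35 in A and 0.42 in B. Psrc1, a regulator of spindle microtubules, stood out at 27.4 CPM in both libraries in fibroblasts, against 3.01 and 2.64 CPM in neurons (log2 fold change 3.46 ± 0.23). Cks1b was at 154 and 96.4 CPM in fibroblasts, against 31.1 and 28.7 CPM in neurons (2.26 ± 0.13). Cdk1 was at 68.9 and 31.6 CPM in fibroblasts, against 15.0 and 13.2 CPM in neurons (2.01 ± 0.20). Most of these levels were higher in A than in B, and Kif23 differed most between the libraries, by 1.89 on the log2 scale, and 42 of the 49 genes had the same sign in both libraries. Ckap5 and Tubb4b were lower in fibroblasts, at 48.6 and 49 CPM, against 87.2 and 90.1 in neurons, for Ckap5 (−0.65 ± 0.11), and at 449 and 408 CPM, against 610 and 605 in neurons, for Tubb4b (−0.30 ± 0.07). Ect2, Cdc25c, Haus5, Cdca3 and Cenpf did not pass. Across all 13 settings 35 genes were called higher and 1, Ckap5, lower.

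Macrophages, with 37 and 46 cells in the libraries, had 37 of the 49 genes higher than neurons and 2 lower (19.1% of all genes higher and 27.3% lower), with a median log2 fold change of 1.68, against −0.25 over all genes. Kif23 was at 35.7 and 18.7 CPM in macrophages, against 3.96 and 4.07 CPM in neurons (log2 fold change 2.85 ± 0.56). Ccnb2 was at 73.7 and 27.1 CPM in macrophages, against 8.27 and 7.26 CPM in neurons (2.76 ± 0.35). Cdc20 was at 42.8 and 25 CPM in macrophages, against 6.98 and 6.71 CPM in neurons (2.40 ± 0.42). As in fibroblasts, library A gave the higher value of each. Tubb4b was lower, at 347 and 196 CPM in macrophages, against 610 and 605 CPM in neurons (−1.07 ± 0.11), as was Ckap5 (59.4 and 54.2 CPM, against 87.2 and 90.1 CPM, −0.53 ± 0.20). The 10 genes that did not pass were scarce in these few cells, such as Ckap2l, with 13 UMIs in A and 1 in B. Only 26 genes were called higher in all 13 settings.

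Set directly against the other non-neuronal classes, glia again had the higher levels. Against fibroblasts, 48 of the 49 were higher in glia and none lower (30.9% of all genes higher and 24.9% lower), with a median log2 fold change of 2.31 (2.04 in A and 2.95 in B alone), against 0.14 over all genes. The largest difference was in Cenpf, a protein of the outer kinetochore, at 585 and 581 CPM in glia, against 71.8 and 24.1 CPM in fibroblasts (3.41 ± 0.16). Nusap1, which bundles spindle microtubules, followed at 194 and 185 CPM in glia, against 20.3 and 12.9 CPM in fibroblasts (3.29 ± 0.14). Psrc1 did not pass (28.9 and 32.0 CPM in glia, against 27.4 CPM in both fibroblast libraries, −0.09 ± 0.15), and Cks1b differed little (173 and 172, against 154 and 96.4 CPM, 0.24 ± 0.10). Against macrophages, 47 of the 49 were higher in glia and none lower (21.8% of all genes higher and 12.1% lower), with a median log2 fold change of 1.68 (1.51 in A and 2.12 in B alone), against 0.42 over all genes. Anln, the anillin of the contractile ring, was at 142 and 134 CPM in glia, against 23.8 and 14.6 CPM in macrophages (2.71 ± 0.29). Cdc25c and Gtse1 did not pass.

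**Figure D2:**
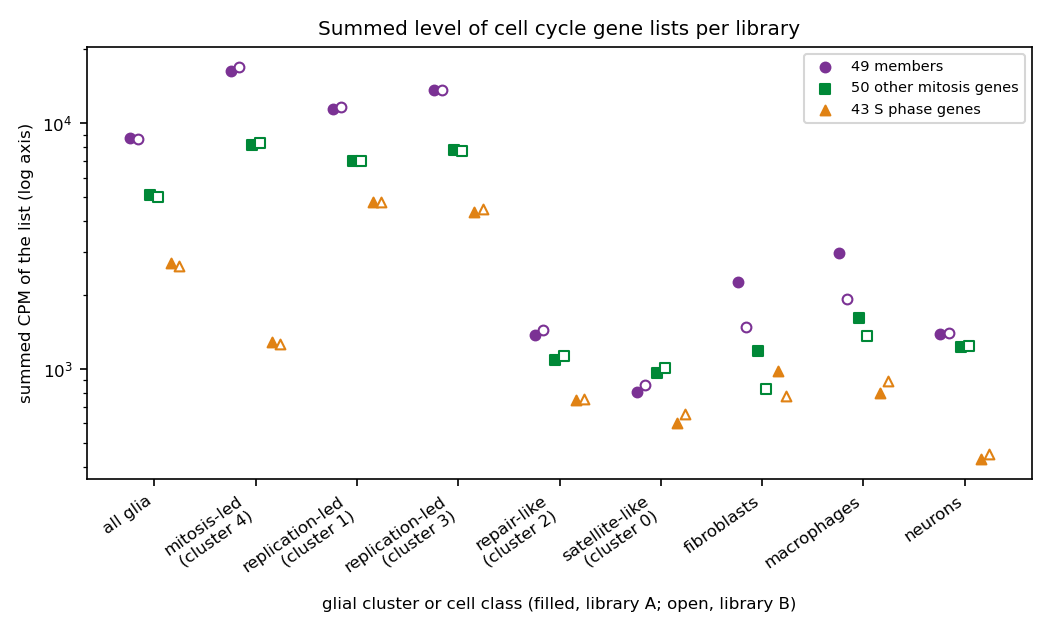
Summed CPM, on a log axis, of the 49 genes (circles), 50 other mitosis genes (squares) and 43 S phase genes (triangles) in all glia, the 5 glial clusters, fibroblasts, macrophages and neurons, with library A filled and B open. The 49 genes reach 16395 and 17012 CPM in the mitosis-led cluster and lie between 805 and 1443 CPM in the non-dividing clusters, where neurons have 1381 and 1395 CPM.

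Glial cells more often held several member UMIs than cells of the other classes did. To compare cells of unequal depth, 2000 UMIs were drawn from each cell, which left out 181 glial cells, 43 neurons and 5 fibroblasts. With at least 3 member UMIs asked for, 58.7% of glial cells in A and 58.3% in B passed (58.5% pooled, exact Clopper-Pearson 95% interval 57.4 to 59.5, which covers counting error only), against 45.2% and 46.5% of neurons. Fibroblasts gave 28.7% and 31.1%, and macrophages 32.4% and 21.7%. Neurons thus passed this threshold more often than fibroblasts did, and Tubb4b was the member detected most widely in them (55.2% of neurons and 52.4% of glia). With at least 10 UMIs, an alternative chosen after seeing the data, 35.4% of glial cells in A and 34.8% in B passed, 8.77% and 4.72% of fibroblasts, 13.5% and 8.70% of macrophages, and 3.40% and 3.12% of neurons. Top2a, at 2000 UMIs per cell, was detected in 33.0% of glia, 5.98% of fibroblasts, 10.6% of macrophages and 6.33% of neurons, so that fibroblasts lay at the neuronal share although their Top2a CPM was higher, and no order is read from these shares.

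The 10% of cells with the most member UMIs held 41.1% of all member UMIs in glia, 49.2% in fibroblasts, 62.7% in macrophages and 32.4% in neurons. Cells with at least 10 member UMIs numbered 25 in fibroblasts, 9 in macrophages and 25 in neurons. Their summed glial markers were at 349 CPM, against 168 CPM in the 358 other fibroblasts, at 1511 CPM, against 703 CPM in the 74 other macrophages, and at 1277 CPM, against 528 CPM in the 740 other neurons. Their part in the member levels was not tested. In glia the order was the opposite, with 3380 CPM of glial markers in the 3252 cells with at least 10 member UMIs and 4330 CPM in the other 6018.

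**Figure D3:**
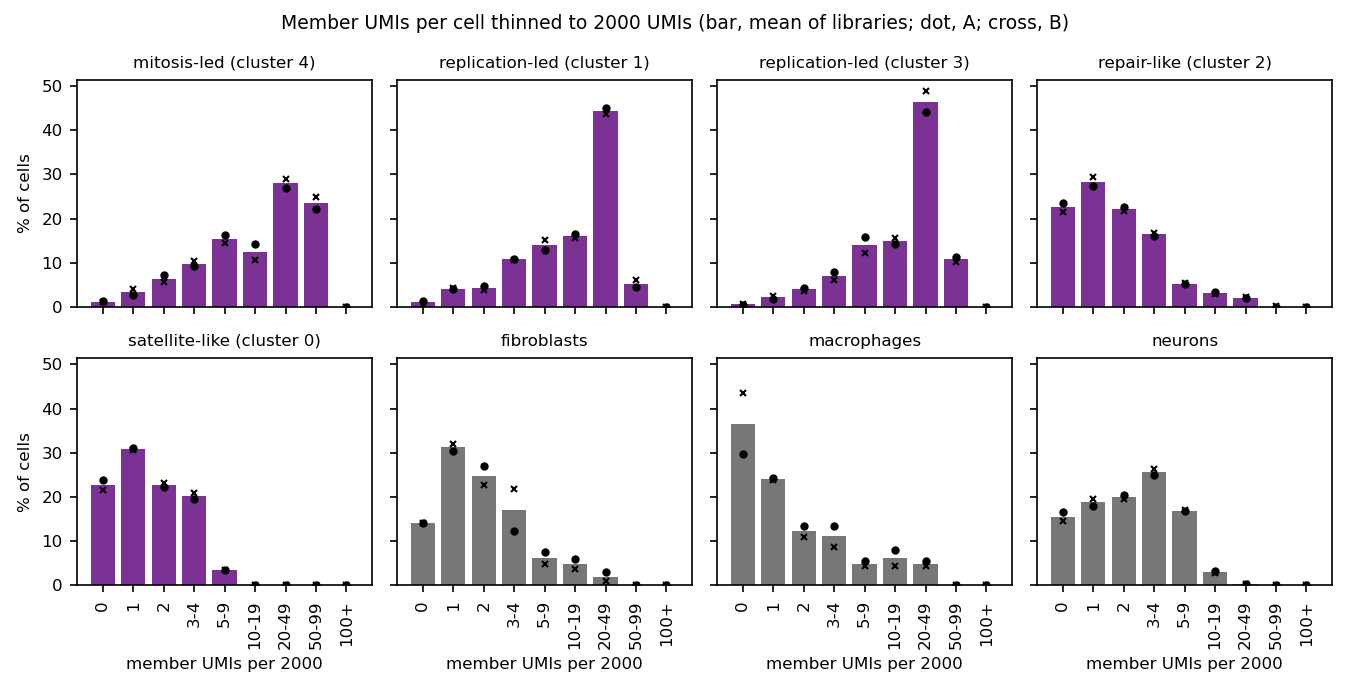
Share of cells, in percent, by the number of member UMIs among 2000 UMIs drawn per cell, in the 5 glial clusters, fibroblasts, macrophages and neurons, with bars at the mean of the libraries, dots for A and crosses for B. The dividing glial clusters have medians of 19 to 23 member UMIs and lower quartiles of 5 to 8. Non-dividing glia, fibroblasts and macrophages have medians of 1 to 2 with a thin tail, and neurons a median of 2 with values that seldom exceed 9.

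Within glia, the question was how these genes are distributed over states that were defined without them. All 49 were higher in the mitosis-led cluster than in the non-dividing clusters (edgeR, adjusted p under 0.05 over the 10093 genes not used for clustering, of which 21.0% were higher and 18.8% lower), with a median log2 fold change of 5.43, against 0.002 over all genes. All 49 were also higher in the replication-led clusters than in the non-dividing ones (26.1% of all genes higher and 28.9% lower), with a median of 4.72, against −0.045. Both counts stood in every setting run, 11 for mitosis-led and 12 for replication-led glia. The clusters had been called dividing from the other mitosis genes and the S phase genes, which belong to the same cell cycle. These counts therefore describe the states and are not an independent test.

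Ube2c, the ubiquitin-conjugating enzyme of the anaphase-promoting complex, was at 957 CPM in A and 977 in B in the mitosis-led cluster, against 27.2 and 32.4 CPM in repair-like and 4.23 and 4.31 CPM in satellite-like glia (log2 fold change 6.41 ± 0.06). Ccnb1 was at 363 and 379 CPM in the mitosis-led cluster, against 10.9 and 14.3 CPM in repair-like and 1.76 and 1.16 CPM in satellite-like glia (6.41 ± 0.09). Nusap1 was at 290 and 274 CPM in the mitosis-led cluster, against 3.64 and 4.22 CPM in repair-like and 1.59 and 2.32 CPM in satellite-like glia (6.64 ± 0.10). For these genes the mitosis-led cluster lay far above both non-dividing clusters in each library. Nek2, a kinase of centrosome separation, Cdca2, which brings a phosphatase to chromatin, Bub1, Kif2c and Gtse1 had 1 to 3 UMIs in all of the satellite-like cluster, and their fitted fold changes depend on the prior count of the fit and are not given.

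In the main clustering Top2a reached its highest level in the replication-led clusters, 1158 and 1149 CPM in cluster 1 and 1242 and 1288 CPM in cluster 3, against 14.6 and 23.9 CPM in repair-like and 7.76 and 9.27 CPM in satellite-like glia (log2 fold change 6.57 ± 0.05). Its rank above mitosis-led glia depended on the clustering. Aurkb, the kinase of the chromosomal passenger complex, was at 105 and 115 CPM in cluster 1 and 118 and 124 CPM in cluster 3, against 0.56 and 1.64 CPM in repair-like and 1.06 and 0.83 CPM in satellite-like glia (6.80 ± 0.12). Kif11, the kinesin that pushes spindle poles apart, was at 157 and 143 CPM in cluster 1 and 164 and 187 CPM in cluster 3, against 3.08 and 4.46 CPM in repair-like and 0.53 and 0.66 CPM in satellite-like glia (6.75 ± 0.11). In the mitosis-led cluster Kif11, at 170 and 176 CPM, lay within the range of cluster 3. Top2a was detected in 67.6% of cells of cluster 1 and 75.1% of cluster 3, against 2.59% of repair-like and 1.27% of satellite-like cells, both below the 6.33% of neurons.

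The smallest differences between mitosis-led and non-dividing glia were in Anp32e, a histone chaperone (338 and 336 CPM, against 158 and 149 in repair-like and 108 and 116 in satellite-like glia, log2 fold change 1.35 ± 0.05), Haus5 (1.61 ± 0.22), Lbr (1.65 ± 0.08) and Ckap5 (1.78 ± 0.05). Tubb4b differed between the states although most cells contain it, at 1575 and 1646 CPM in the mitosis-led cluster, against 199 and 226 CPM in repair-like and 247 and 239 CPM in satellite-like glia (2.82 ± 0.03). Both non-dividing clusters held less Tubb4b than the 610 and 605 CPM of neurons.

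The next comparison set mitosis-led against replication-led glia, to see which members are shared by these dividing states and which differ. The states had been told apart by the ratio of S phase genes to other mitosis genes, which belong to the same cell cycle. The counts therefore describe the states and are not an independent test. In it 31 of the 49 genes were higher in the mitosis-led cluster, 13 lower, and 5 did not pass (18.9% of all genes higher and 18.7% lower). The median log2 fold change was 0.30, against 0.015 over all genes. As sums, the 49 genes reached 16395 CPM in A and 17012 in B in cluster 4, against 11409 and 11627 in cluster 1 and 13645 and 13602 in cluster 3.

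The largest fold change was again that of Cdc20, at 432 and 460 CPM in the mitosis-led cluster, against 139 and 139 CPM in cluster 1 and 245 and 227 CPM in cluster 3 (log2 fold change 1.26 ± 0.04, edgeR adjusted p = 9.1e-31). Ccnb1 was at 363 and 379 CPM, against 104 and 116 in cluster 1 and 218 and 204 in cluster 3 (1.25 ± 0.04). Cenpa, the histone variant that marks centromeres, was at 630 and 641 CPM in the mitosis-led cluster, against 207 and 218 in cluster 1 and 358 and 313 in cluster 3 (1.22 ± 0.04). In all of these the 3 clusters kept the same order in both libraries, with 4 first, 3 next and 1 last.

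Cenpf was the most abundant member of the mitosis-led cluster, at 1644 and 1738 CPM, against 566 and 576 CPM in cluster 1 and 929 and 887 CPM in cluster 3 (1.20 ± 0.03). Cdc25c, the phosphatase that activates Cdk1, was at 54.5 and 56.6 CPM in the mitosis-led cluster, against 22.4 and 22.7 in cluster 1 and 28.6 and 25.3 in cluster 3 (1.14 ± 0.10). Ccnb2 was at 329 and 350 CPM in the mitosis-led cluster, against 126 and 143 in cluster 1 and 175 and 166 in cluster 3 (1.13 ± 0.05). Cdk1, the partner of these cyclins, did not pass in the main clustering, at 470 and 438 CPM in the mitosis-led cluster, against 428 and 448 in cluster 1 and 461 and 473 in cluster 3 (−0.03 ± 0.04, edgeR adjusted p = 0.51), and was called higher in the 6 other clusterings that had both states, by 0.48 to 0.87 on the log2 scale. In the share of cells the cyclins differed likewise: Ccnb1 was detected in 34.9% of mitosis-led cells, against 15.7% in cluster 1, 25.6% in cluster 3 and 2.06% in neurons.

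Lower in the mitosis-led cluster were all 4 genes of chromosome structure and parts of the kinetochore. Haus5, a subunit of the augmin complex that branches spindle microtubules, was at 13.2 and 12.3 CPM in the mitosis-led cluster, against 28.1 and 31.1 in cluster 1 and 23.1 and 20.8 in cluster 3 (−1.03 ± 0.15). Ndc80 was at 52.1 and 56.3 CPM in the mitosis-led cluster, against 81.3 and 86.7 in cluster 1 and 86.0 and 94.5 in cluster 3 (−0.72 ± 0.07). Aurkb was at 72.0 and 74.3 CPM in the mitosis-led cluster, against 105 and 115 in cluster 1 and 118 and 124 in cluster 3 (−0.69 ± 0.06). Aurka, by contrast, was higher, at 69.0 and 77.0 CPM in the mitosis-led cluster, against 49.6 and 48.5 in cluster 1 and 55.8 and 63.6 in cluster 3 (0.39 ± 0.08). Hjurp, the chaperone that loads Cenpa, was lower (−0.52 ± 0.06) where Cenpa itself was higher, and Top2a (−0.41 ± 0.03) and Mki67 (−0.18 ± 0.03) were lower as well.

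Most of these lower values belong to the main clustering. Over 11 settings the number of genes called lower ran from 0 to 13, and 11 of the 49 were called higher in some settings and lower in others. With a mitochondrial limit of 20%, or with 30 dimensions, the mitosis-led cluster shrank to 423 or 432 cells, and 47 genes were higher and 0 lower in each (13.8% and 14.1% of all genes were higher there and 14.7% and 14.5% lower). The other mitosis genes were at 13100 CPM in each of these smaller clusters, against 8237 CPM in the main one. Haus5 had a negative fold change in all 11 settings, between −1.03 and −0.41. It was the 1 gene called lower with a mitochondrial limit of 5%, a resolution of 0.3 or clustering on a random part of the UMIs, and without the highest doublet scores Haus5, Hjurp and Tmpo were lower. The 25 genes called higher in all 11 settings were 10 of the 16 spindle and microtubule genes (Tpx2, Tacc3, Ckap2l, Ckap2, Kif2c, Tubb4b, Dlgap5, Hmmr, Psrc1 and Ckap5), 4 of the 6 of the Cdk1 group (Ccnb1, Ccnb2, Cdc25c and Cks2), both of the anaphase-promoting complex (Cdc20 and Ube2c), both ubiquitin ligases (Cdca3 and G2e3), 3 of the 7 kinase and checkpoint genes (Aurka, Nek2 and Cdca8, a partner subunit of Aurora B), 3 of the 7 kinetochore and centromere genes (Cenpf, Cenpe and Cenpa) and Ect2, which sets the cleavage plane. None of the 4 genes of chromosome structure was among them.

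**Figure D4:**
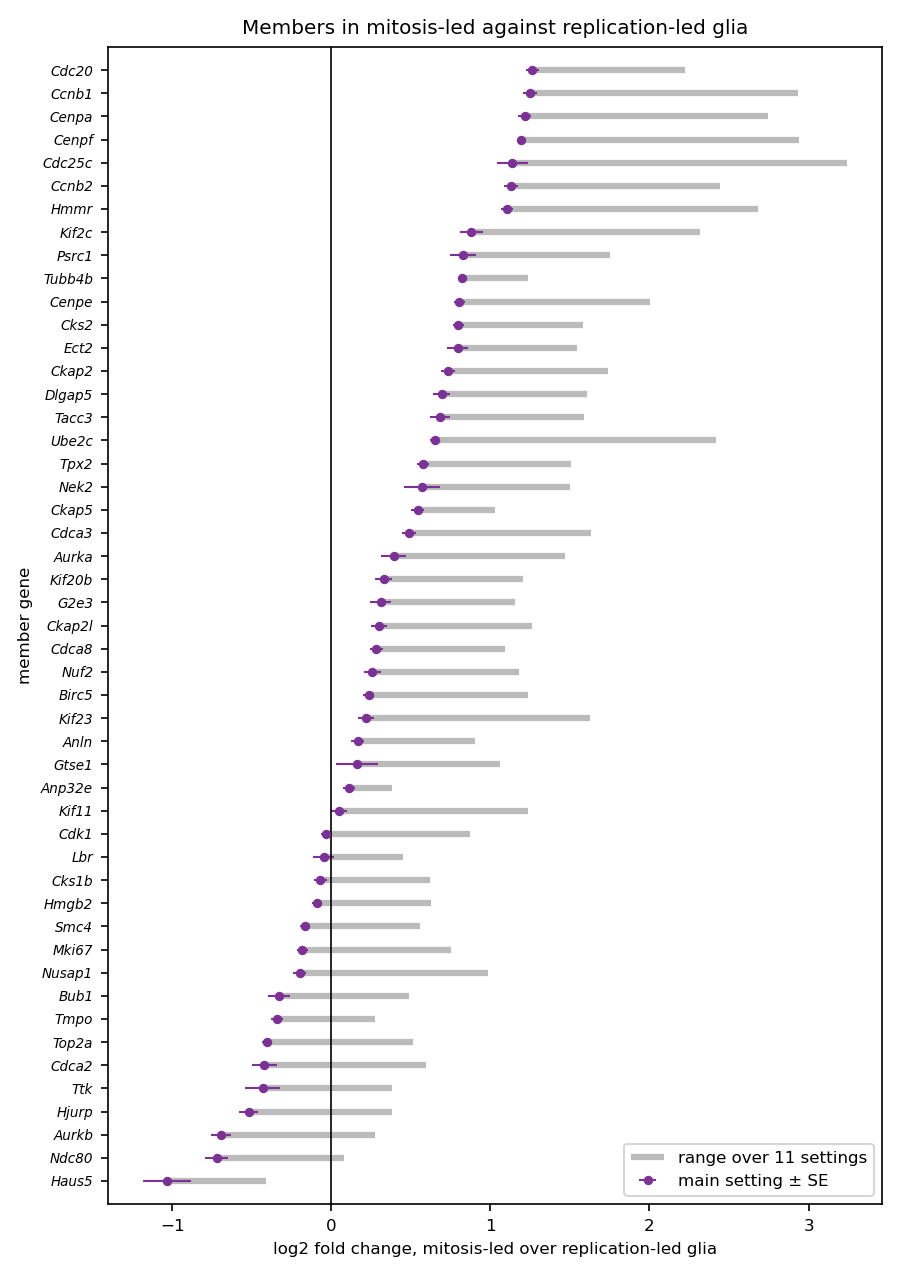
Log2 fold change of each of the 49 genes, mitosis-led over replication-led glia, with points and thin bars for the main clustering ± SE and grey bars for the range over 11 settings. Cdc20, Ccnb1, Cenpa and Cenpf lie above 1 throughout, Top2a, Mki67 and Aurkb cross 0, and Haus5 stays below it.

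Non-dividing glia were not alike in these genes either, but this difference turned with the clustering. In the main setting 39 of the 49 genes were higher in repair-like than in satellite-like glia, 1 was lower and 9 did not pass (15.5% of all genes higher and 17.2% lower), with a median log2 fold change of 2.01, against −0.006 over all genes. Ccnb1 was at 10.9 and 14.3 CPM in repair-like glia, against 1.76 and 1.16 CPM in satellite-like glia (3.15 ± 0.31). Mki67 was at 37.5 and 36.6 CPM in repair-like glia, against 1.94 and 6.46 CPM in satellite-like glia (3.15 ± 0.23). Cdk1 was at 9.25 and 11.3 CPM in repair-like glia, against 8.64 and 9.27 CPM in satellite-like glia (0.24 ± 0.23, edgeR adjusted p = 0.47). In both clusters these levels were a small part of those in dividing glia.

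The median repair-like and satellite-like cell each had 1 member UMI of 2000, and 26.7% and 27.3% of repair-like cells reached 3 UMIs, against 22.9% and 24.4% of satellite-like cells, all below the 45.2% and 46.5% of neurons. With at least 10 UMIs the clusters separated, at 5.41% and 5.24% of repair-like cells, against 0% of 1287 cells in A (which allows up to 0.233%, taking 3 counts of the total as the limit) and 0.138% in B for satellite-like cells. The top 10% of cells held 50.8% of the member UMIs in the repair-like cluster and 27.6% in the satellite-like cluster. With a mitochondrial limit of 20%, 30 dimensions, a resolution of 0.1 or clustering on a random part of the UMIs, the satellite-like cluster grew to between 3465 and 4512 cells, and 17 to 35 genes were then lower and 0 to 2 higher in repair-like glia (11.7% to 17.3% of all genes lower and 10.6% to 14.6% higher). No gene was called in the same direction in all 11 settings, and 35 were called in both directions.

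**Figure D5:**
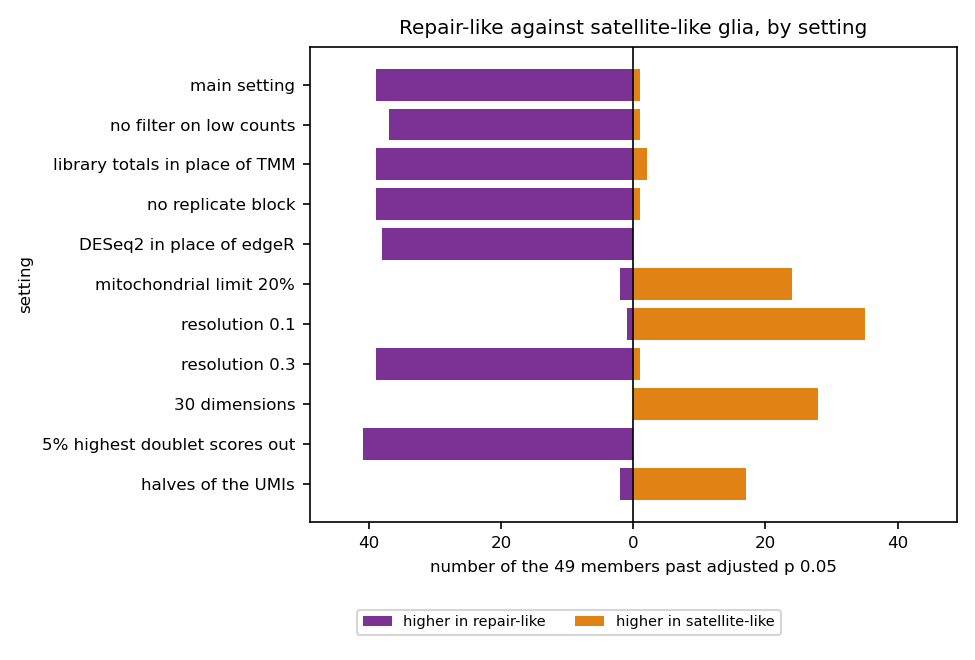
Number of the 49 genes past an adjusted p of 0.05 in repair-like against satellite-like glia under 11 settings, with genes higher in repair-like glia to the left of 0 and genes higher in satellite-like glia to the right. The main setting gives 39 and 1, and 4 settings that change the clusters turn the direction. Among the settings that change the clusters, only a resolution of 0.3 and removal of the highest doublet scores keep it. The remaining settings reuse the main clusters.

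Genes outside the 49 were read in the same fits. Of 50 other mitosis genes, 49 were higher in glia than in neurons (43.0% of all genes higher and 40.8% lower). Their summed level had served to call the clusters dividing and mitosis-led, so their values between the clusters are a description. Their median log2 fold change between mitosis-led and replication-led glia was −0.03. Pttg1, the securin that anaphase destroys, was at 419 and 420 CPM in the mitosis-led cluster, against 118 and 125 in cluster 1 and 203 and 184 in cluster 3 (log2 fold change 1.42), and Kif20a, a kinesin of the central spindle, had a fold change of 1.12 on the same scale. Cenph and Cenpk, of the inner kinetochore, had −1.75 and −1.06.

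Of the 22 regulators of the mitotic programme, 21 were higher in replication-led than in non-dividing glia (26.1% of all genes higher and 28.9% lower). The clusters had been named with the S phase genes, a list that also holds the regulator E2f8. The values of the regulators between clusters are therefore a description as well. Between mitosis-led and replication-led glia 15 were lower and 1 higher in the former (18.7% of all genes lower and 18.9% higher). Their median log2 fold change there was −0.89, against 0.015 over all genes. Mybl2 (B-Myb) was at 3.22 and 3.76 CPM in the mitosis-led cluster, against 34.1 and 35.1 in cluster 1 and 22 and 26.7 in cluster 3 (−3.09 ± 0.21). E2f1, an activator of replication genes, was at 11 and 13.1 CPM in the mitosis-led cluster, against 74.7 and 69.4 in cluster 1 and 75 and 84.4 in cluster 3 (−2.69 ± 0.11). E2f2 (−3.49 ± 0.27) and E2f7 (−3.08 ± 0.18) were lower as well, and E2f5 was higher (0.98 ± 0.08). Of the 43 S phase genes all were higher in glia than in neurons (43.0% of all genes higher), and 39 were used for clustering and so were not tested between glial clusters.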

How the data were processed

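Cell_culture libraries A and B were made with the 10x Chromium 3' v3 kit. The deposited values are UMI counts for each gene in each barcode, which the authors made without further scaling with Cell Ranger 3.0.2 on mm10 (the submitters' processing notes, which also name Seurat 3). No column of per-sample values was left unused.

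A cell needed at least 200 genes and no more than 10% mitochondrial UMIs. Clusters (R 4.3.3, Seurat 5.3.0, 2000 variable genes, 20 dimensions, resolution 0.18) were named from marker lists. Glia were clustered again without the 49 genes, the other mitosis genes and the regulators. A glial cluster was dividing when its summed mitosis or S phase level was at least 3 times that of the lowest cluster, and mitosis-led when its ratio of S phase to mitosis level was under 0.3. Doublets were scored with Scrublet (scanpy 1.11.5). Total depth was 40355401 UMIs in A and 38945848 in B.

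Counts were summed per library and class (8 sums, 3 residual degrees of freedom) or glial cluster (10 sums, 4) and tested with edgeR 4.0.16 (TMM, filterByExpr, glmQLFit and glmQLFTest, library as a block). The Benjamini-Hochberg adjustment ran over all genes in the fit, without genes used for clustering in the glial fit, and a gene passed at 0.05. All 49 genes passed the filter on low counts in both fits. The step was tested on simulated data. Same-numbered pairing comes from the design, since all classes are cells of the same libraries.

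Any of the 49 genes could be named. Values with fold changes are given for at most 6 genes a direction, those that passed with the largest fold change, the same sign in both libraries and 20 CPM or more in the higher group, and for Top2a, Mki67, Cdk1, Ccnb1, Ccnb2, Aurka, Aurkb, Cdc20, Cks1b, Cks2, Tubb4b, Ckap5 and Lbr. Other fold changes were chosen after their values were seen. The genes and lists were chosen with earlier results of these data known. Other settings tried were library totals, no block, no low-count filter, DESeq2 1.42.0, mitochondrial limits of 5% and 20%, resolutions of 0.1 and 0.3, 30 dimensions, the 49 genes kept for clustering, removal of high doublet scores, clustering and counting on separate parts of the UMIs, other thinning depths and leaving out each library.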

Additional observations from a re-analysis of the deposited data

How the results depend on the processing

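Between the 4 classes no member was called in both directions, and between mitosis-led and replication-led glia and between repair-like and satellite-like glia the calls depended on the clustering. Leaving out the replicate block (both libraries are in each group, and the library is a block in the main fits) ended the call of 1 named gene, Cks1b in glia over fibroblasts (edgeR adjusted p = 0.0524), so that 47 genes were higher there in place of 48, and changed the call of no other named gene. With DESeq2 1 gene was lower in fibroblasts and 1 in macrophages than in neurons. By the same method 8 were lower in mitosis-led than in replication-led glia (9.85% of all genes lower). In repair-like against satellite-like glia 0 were lower by it (7.29% of all genes). In the 5 comparisons with glia above another class or dividing above non-dividing glia in which no gene was lower by edgeR, none was lower at an unadjusted p under 0.05 or with DESeq2. With library totals in place of TMM 2 genes were lower in repair-like glia (19.6% of all genes lower).

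Genes lower in mitosis-led than in replication-led glia numbered 1 with a mitochondrial limit of 5%, with a resolution of 0.3 or with clustering on a random part of the UMIs, 3 with the highest doublet scores removed, and 0 with a limit of 20% or 30 dimensions, where 47 were higher. Of all genes 6.96%, 17.5%, 10.6%, 15.9%, 14.7% and 14.5% were lower in these settings, in the same order. Genes higher and lower in repair-like than in satellite-like glia are given with the shares of all genes in brackets. They numbered 2 and 24 with a limit of 20% (13.8% and 17.1%), and 1 and 35 with a resolution of 0.1 (14.6% and 14.5%). With 30 dimensions they numbered 0 and 28 (14.3% and 17.3%), and with clustering on a part of the UMIs 2 and 17 (10.6% and 11.7%). With the highest doublet scores removed 0 were lower (15.1% of all genes). In that last clustering 1 gene was lower in macrophages than in neurons. A resolution of 0.1 gave no mitosis-led cluster and a limit of 5% no split of non-dividing glia. With the 49 genes kept among the variable genes they chose the glial clusters, so no test between clusters was made.

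The share of cells with member UMIs depended on the number asked for. With at least 1 UMI it was 88.4% in glia, 85.9% in fibroblasts, 63.4% in macrophages and 84.5% in neurons. With at least 5 it was 44.4%, 12.9%, 16.0% and 20.1% in the same order, and with at least 10, chosen after seeing the data, 35.1%, 6.74%, 11.1% and 3.26%. The shares that follow are all for at least 3 member UMIs. Without thinning the share was 78.9% in glia, 90.7% in fibroblasts, 83.2% in macrophages and 93.5% in neurons. With 1000 UMIs drawn per cell it was 44.1%, 10.8%, 18.2% and 19.8% in the same order. With 3000 UMIs it was 72.3% in glia, 46.6% in fibroblasts and 61.8% in neurons. With a limit of 5% it was 72.3% in glia, 32.8% in fibroblasts and 43.7% in neurons, and with 20% 41.9% in neurons. Without the highest doublet scores it was 56.8% for glia, 19.4% for macrophages and 39.7% for neurons.

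The summed level in glia was 13690 CPM with a limit of 5%, and in neurons 1332 CPM with 5%, 1369 CPM with 20% and 1326 CPM without the highest doublet scores. Without Tubb4b, Hmgb2, Cks1b, Tmpo, Anp32e, Ckap5 and Lbr it was 6360 CPM in glia, 994 in fibroblasts, 1680 in macrophages and 501 in neurons. Leaving out each library gave summed levels of 8591 to 8699 CPM in glia and 1474 to 2260 CPM in fibroblasts. In macrophages they were 1933 to 2971 CPM and in neurons 1381 to 1395 CPM. Shares with at least 3 member UMIs became 58.3% to 58.7%, 28.6% to 31.1%, 21.7% to 32.4% and 45.2% to 46.5% in the same order. A single library leaves no replicate, so ratios then carry no test, and Aurka in fibroblasts over neurons was −0.27 without library A and 1.25 without library B. Without the highest doublet scores Tubb4b in glia over neurons became −0.045. In the 100 bases before the start 13 members held the homology letters and 11 both motifs.

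Between mitosis-led and replication-led glia, the following log2 fold changes had the opposite sign to the main values. With a mitochondrial limit of 5% they were Hjurp 0.022, Cdca2 0.12, Mki67 0.20, Cdk1 0.48 and Cks1b 0.51. With a mitochondrial limit of 20% they were Ndc80 0.057, Aurkb 0.25, Hjurp 0.29, Ttk 0.37, Cdca2 0.50, Top2a 0.49, Mki67 0.54, Cdk1 0.86, Cks1b 0.60 and Lbr 0.41. With a resolution of 0.3 they were Ndc80 0.021, Aurkb 0.17, Ttk 0.17, Cdca2 0.57, Top2a 0.36, Mki67 0.70, Cdk1 0.56 and Cks1b 0.32. With 30 dimensions they were Ndc80 0.079, Aurkb 0.28, Hjurp 0.32, Ttk 0.38, Cdca2 0.51, Top2a 0.51, Mki67 0.57, Cdk1 0.87, Cks1b 0.62 and Lbr 0.45. With the 5% of cells with the highest doublet scores removed they were Aurkb 0.21, Ttk 0.15, Cdca2 0.60, Top2a 0.33, Mki67 0.75, Cdk1 0.52 and Cks1b 0.25. With clustering on a random part of the UMIs and members counted in the rest they were Ndc80 0.018, Aurkb 0.087, Hjurp 0.39, Ttk 0.20, Cdca2 0.42, Top2a 0.38, Mki67 0.52, Cdk1 0.81, Cks1b 0.62 and Lbr 0.41. The cause was not tested.

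Between repair-like and satellite-like glia, the following log2 fold changes had the opposite sign to the main values. With a mitochondrial limit of 20% they were the median of the 49 genes −0.41, Cenpe −0.072, Mki67 −0.45, Birc5 −0.74, Hmmr −0.99, Ccnb2 −0.62, Cdk1 −0.63, Ccnb1 −0.59, Cdc20 −0.52 and Cks2 −0.83. With a resolution of 0.1 they were the median of the 49 genes −0.66, Mki67 −0.69, Birc5 −0.67, Hmmr −0.66, Ccnb2 −0.25, Top2a −1.46, Cdk1 −1.73, Ccnb1 −0.29, Aurkb −1.74, Cdc20 −0.30, Cks1b −0.42, Cks2 −0.71 and Lbr −0.28. With 30 dimensions they were the median of the 49 genes −0.60, Cenpe −0.22, Mki67 −0.56, Birc5 −0.86, Hmmr −1.02, Ccnb2 −0.76, Top2a −0.40, Cdk1 −0.95, Ccnb1 −0.92, Cdc20 −0.60 and Cks2 −0.87. With clustering on a random part of the UMIs and members counted in the rest they were the median of the 49 genes −0.26, Cenpe −0.091, Mki67 −0.16, Birc5 −0.55, Hmmr −0.72, Ccnb2 −0.46, Top2a −0.094, Cdk1 −0.80, Ccnb1 −0.85, Cdc20 −0.52 and Cks2 −0.82. The cause was not tested.

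Having 2 libraries of 1 condition limits all of this. Fibroblasts (388 cells) and macrophages (83 cells) gave few UMIs per gene, clusters share their library, free RNA and undetected doublets were not removed, and CPM are shares of a cell's RNA, so that a higher share and a smaller rest cannot be told apart.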
